A study of Mus musculus with 12 samples.

Results

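The genes described are 8 well-known targets of the glucocorticoid receptor, Tsc22d3, Fkbp5, Sgk1, Zbtb16, Ddit4, Tat, Errfi1 and Hsd11b1. They were taken by symbol, and all 8 were found among the 23849 gene symbols of the deposited table and passed the filter on low values, a mean of at least 1 FPKM. Liver RNA was sequenced from 12 male mice of the C57BL/6J background, with 3 mice in each of 4 groups. The groups were vehicle at ZT0, vehicle at ZT12, Policaptil Gel Retard at ZT0 and Policaptil Gel Retard at ZT12, where zeitgeber time (ZT) is the number of hours after lights on, so that ZT0 closes the active phase of the mouse and ZT12 opens it. All mice, controls included, were on HFD for 6 weeks, and their age is given as 8 weeks, without saying whether at the start of the diet or at collection. The tested product is a mixture of dietary fibers that swells to a gel, called Libramed in the sample labels. It was gavaged daily at ZT11 in the final 2 weeks, in a volume of 200 µl with 20 mg/ml. Vehicle mice received drinking water in the same way, and a group on normal diet was not analysed here. Values are FPKM, the reads of a gene scaled by transcript length and by the mapped reads of the library.

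Glucocorticoids are steroid hormones of the adrenal cortex, and corticosterone is the main one in mice. The hormone binds the glucocorticoid receptor, which moves to the nucleus and switches on genes whose regulatory DNA carries its palindromic response element. Blood corticosterone in mice follows a daily rhythm that peaks around the start of the dark phase, and in liver the receptor promotes gluconeogenesis and the breakdown of amino acids. Hormone levels were not analysed here.

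The 8 genes have different tasks. Tat encodes tyrosine aminotransferase, the first enzyme of tyrosine breakdown and a classical hepatic target of the hormone. Hsd11b1 encodes the hydroxysteroid dehydrogenase that regenerates active corticosterone inside hepatocytes, and Fkbp5 a co-chaperone that lowers the affinity of the receptor for its ligand. Tsc22d3 encodes the leucine zipper protein GILZ, which restrains inflammatory signalling. Ddit4 encodes REDD1, an inhibitor of the growth kinase mTORC1, and Errfi1 encodes MIG6, an inhibitor of the EGF receptor. Sgk1 encodes a kinase first found through its induction by serum and glucocorticoids, and Zbtb16 the zinc finger transcription factor PLZF.

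The DNA just before the transcription starts was searched for the response element, to show where its letters occur near these genes. RefSeq start sites (GRCm38.p6, the build of mm10) gave 15 windows of 250 bases for 7 of the genes, and Zbtb16 had no entry. The full palindrome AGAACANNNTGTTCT lay in 1 of the 15 windows, before an internal start of Sgk1, against 0.00914% of 32817 windows of the same 250 bases over all genes. That share stands for 3 windows, with this Sgk1 window among them, and Sgk1 alone had 6 of the 15 windows. A single arm of the palindrome, TGTTCT, read on both strands like the others, lay in 4 windows of Sgk1 and Tsc22d3, against 16.1% of all windows, and its matches inside the full palindrome are counted. The E-box CACGTG, to which CLOCK and BMAL1 can bind, lay in 2 windows, 1 each of Fkbp5 and Sgk1, against 6.02% of all. The windows of Tat, Ddit4, Errfi1 and Hsd11b1 held none of these letters, which says nothing of elements outside them. Of these windows, that of Hsd11b1 is annotated exon over all 250 bases, and that of Ddit4 over 64. Both sequences with an E-box are given because they are also the windows of the only full palindrome among the 15 and of the 1 gene that passed over the day in each treatment. Capitals mark the motifs, and each sequence is read on the strand of its gene, from the 5′ end at left to the base before the start at right.
Sgk1, chr10:21993640-21993889, plus strand: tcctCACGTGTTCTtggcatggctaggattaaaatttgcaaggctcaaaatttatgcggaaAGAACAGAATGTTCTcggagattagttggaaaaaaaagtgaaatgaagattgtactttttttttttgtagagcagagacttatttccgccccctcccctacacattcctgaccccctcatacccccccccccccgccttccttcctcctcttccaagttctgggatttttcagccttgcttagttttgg
Fkbp5, chr17:28486150-28486399, minus strand: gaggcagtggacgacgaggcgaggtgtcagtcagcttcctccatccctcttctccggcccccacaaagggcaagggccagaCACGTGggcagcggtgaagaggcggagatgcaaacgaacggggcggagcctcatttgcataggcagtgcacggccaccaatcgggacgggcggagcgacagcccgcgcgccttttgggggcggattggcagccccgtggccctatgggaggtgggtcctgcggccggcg
In Sgk1 the palindrome read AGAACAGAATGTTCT, from 189 to 175 bases before this start, and the first capitals are an E-box and a single arm that share letters. The window lies inside the gene and holds no annotated exon. In Fkbp5 the E-box began 169 bases before the start, and the window likewise lies inside the gene and holds no annotated exon.

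Tat had the highest mean level over the 12 livers, 686.5 FPKM, which ranked 140 of 9806 genes tested, and was followed by Hsd11b1 at 501 FPKM and Errfi1 at 349 FPKM. Tsc22d3 stood at 82.1 FPKM, Fkbp5 at 13.6 FPKM and Ddit4 at 8.67 FPKM, while Zbtb16 had 4.54 FPKM and Sgk1 4.10 FPKM. In this order of levels per length, the ranges of neighbouring genes over the 12 livers overlapped, except that every value of Errfi1 was above every value of Tsc22d3, and every value of Tsc22d3 above every value of Fkbp5. Zbtb16 spanned the widest range in proportion, from 0.501 to 10.9 FPKM, and was the single gene with livers under 1 FPKM, 2 of the 12. Of the livers, Policaptil ZT12 replicate 3 was among the 3 highest of 12 for all 8 genes, whereas Policaptil ZT0 replicate 1 was among the 3 lowest for 6 of them.

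**Figure D1:**
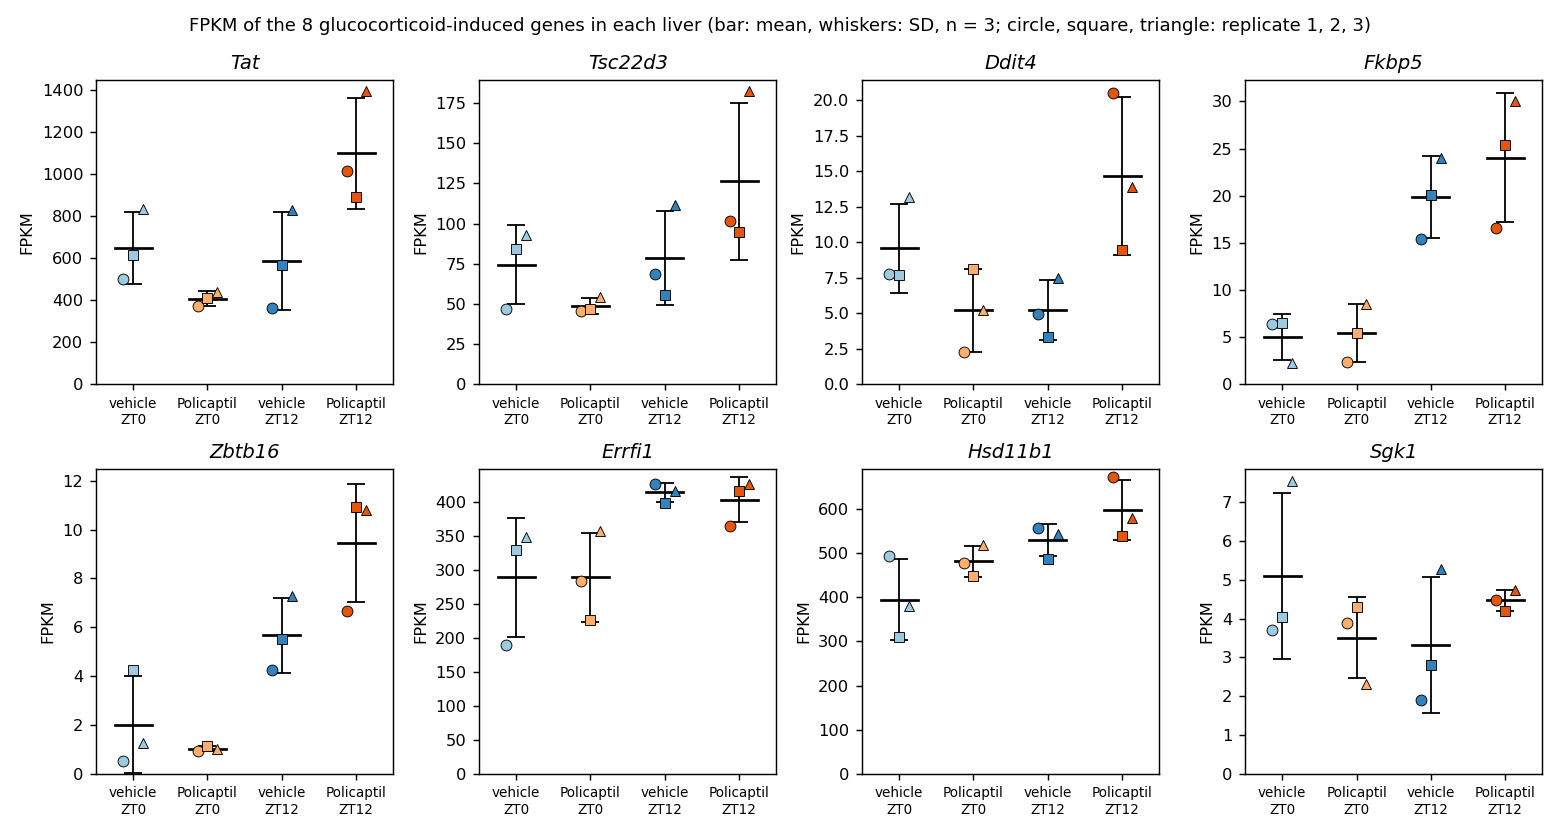
FPKM of each gene (vertical axes, linear, from 0) in the 12 livers, by group. Symbols are livers, bars are means and whiskers SD (n = 3). Fkbp5 is at 15.4 FPKM or more in all livers at ZT12 and at 8.49 FPKM or less in all at ZT0, whereas Tat is highest in the Policaptil ZT12 livers, at 891 FPKM or more.

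Whether the genes changed between the end and the beginning of the active phase was asked first in the vehicle mice, 3 livers at ZT12 against 3 at ZT0. With vehicle, Fkbp5 rose 3.92-fold in mean FPKM, and it was the only one of the 8 genes to pass the test (limma on log2(FPKM + 1), Benjamini-Hochberg adjusted p under 0.05 over all genes tested). Of all 9806 genes, 5.62% passed in this direction and 4.78% in the other. At an unadjusted p under 0.05, 4 of the 8 were higher at ZT12 (14.4% of all genes) and 1 was lower (13% of all genes). The livers of the 2 times did not overlap for 2 genes that were higher at ZT12 (17.4% of all genes) and 1 that was lower (15.8% of all genes). The median log2 fold change was 0.26 over the 8 genes and 0.01 over all genes tested. With Policaptil Gel Retard, the same comparison of 3 livers against 3 other livers gave 4 genes that rose, Zbtb16, Tat, Fkbp5 and Tsc22d3, where 7% of all genes passed in this direction. None of the 8 fell, where 5.36% of all genes did. In these mice 7 of the 8 were higher at an unadjusted p under 0.05 (15.7% of all genes), none was lower (13.4% of all genes), and the median was 1.34 against 0.01 over all genes. All 3 livers at ZT12 lay above all 3 at ZT0 for 7 of the 8 genes, a pattern seen for 19% of all genes, with the reverse seen for 0 of the 8 and 15.8% of all genes, and Sgk1 was the exception. The 2 time comparisons share no mice. In both treatments ZT12 follows the daily gavage at ZT11 more closely than ZT0 does. Time of day and time since gavage therefore cannot be told apart in these changes. Exact permutation of 3 livers against 3 cannot go below a two-sided p of 0.1, so it could not pass 0.05 for a single gene.

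Fkbp5, the brake on the receptor, was the one gene that passed in each treatment. In vehicle mice it was listed at 6.43, 6.50 and 2.24 FPKM at ZT0 and at 15.4, 20.1 and 24.0 FPKM at ZT12. With the tested product the values were 2.41, 5.43 and 8.49 FPKM at ZT0 and 16.6, 25.4 and 30.1 FPKM at ZT12. The times did not overlap in either treatment, and vehicle and treated livers overlapped at both times. The log2 fold change from ZT0 to ZT12 was 1.86 with vehicle (SE 0.34, limma adjusted p = 0.0215) and 2.04 with the tested product (SE 0.38, limma adjusted p = 0.0172). Their difference was 0.18 (limma adjusted p = 0.974; exact permutation p = 0.765, two-sided). The call with vehicle was lost without vehicle ZT12 replicate 2 (limma adjusted p = 0.0846) or replicate 3 (0.0767). That with the tested product was lost without Policaptil ZT0 replicate 2 (limma adjusted p = 0.0510), Policaptil ZT12 replicate 2 (0.0606) or Policaptil ZT12 replicate 3 (0.0596). Both treatments together gave 1.95 (SE 0.28, limma adjusted p = 0.000491; exact permutation p = 0.005, two-sided, the smallest it allows). The gene (ENSMUSG00000024222.17, chr17:28399094-28517527 of mm10, minus strand) overlaps noncoding genes on both strands. Reads of those on the plus strand cannot be told apart from its own if the libraries were not stranded. For those on the minus strand, a stranded library would not separate them either.

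Zbtb16, the zinc finger factor, also rose. Vehicle livers had 0.501, 4.25 and 1.26 FPKM at ZT0 and 4.23, 5.52 and 7.29 FPKM at ZT12. Treated livers had 0.927, 1.12 and 1.03 FPKM at ZT0 and 6.68, 10.9 and 10.8 FPKM at ZT12. In vehicle mice the groups overlapped by 1 liver, ZT0 replicate 2, which was close to the lowest at ZT12, while in treated mice they were far apart. The log2 fold change was 1.33 with vehicle (SE 0.44, limma adjusted p = 0.104), and without vehicle ZT0 replicate 2 it was 1.83 and passed (limma adjusted p = 0.0159). It passed without no other vehicle liver, and without vehicle ZT0 replicate 1 it was 0.93 (limma adjusted p = 0.179). With all livers it also passed in a limma fit over 12 samples (adjusted p = 0.0322), which called 8.21% of all genes higher. It passed as well with Cyber-T, a regularised test named in the study's figure legends (adjusted p = 0.00398), which called 7.5% higher. With Policaptil Gel Retard it was 2.34 (SE 0.18, limma adjusted p = 0.00104), the smallest adjusted p among the 8 genes in any comparison within 1 treatment, and this call held without any one of the 6 livers. The difference between the treatments, 1.01, did not pass (limma adjusted p = 0.764; exact permutation p = 0.1, two-sided). The gene (ENSMUSG00000066687.5) lies at chr9:48654297-48836222 on the minus strand.

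Tat was at similar levels at both times in vehicle mice, with 499.5, 615 and 834 FPKM at ZT0 and 365, 569 and 829 FPKM at ZT12. In treated mice it had 373, 411 and 441 FPKM at ZT0 and 1013, 891 and 1397 FPKM at ZT12. So the treated livers were the lowest of the ZT0 livers and the highest of the ZT12 livers, with no overlap with vehicle at either time. The time change with the tested product was 2.70-fold in mean FPKM, or 1.41 on the log2 scale (SE 0.17, limma adjusted p = 0.00440), and it held without any one of the 6 livers. With vehicle it was −0.19 (SE 0.32, limma adjusted p = 0.748), and it turned to 0.11 without vehicle ZT12 replicate 1. Tat (ENSMUSG00000001670.13) lies at chr8:109990437-109999803 on the plus strand.

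Tsc22d3 followed a like course. Its levels in vehicle mice were 46.7, 84.3 and 92.6 FPKM at ZT0 and 68.5, 55.9 and 111 FPKM at ZT12. In treated mice they were 45.4, 46.8 and 54.1 FPKM at ZT0 and 102, 94.8 and 183 FPKM at ZT12. The vehicle groups overlapped widely, and the treated groups did not overlap. On the log2 scale the time change was 1.29 with the tested product (SE 0.24, limma adjusted p = 0.0175), and leaving out Policaptil ZT0 replicate 1 (limma adjusted p = 0.0563) or replicate 2 (0.0587) ended this call. With vehicle it was 0.07 (SE 0.33, limma adjusted p = 0.912), with a sign that turned to −0.23 without vehicle ZT0 replicate 1. The gene (ENSMUSG00000031431.13) lies at chrX:140539528-140600659 on the minus strand.

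Ddit4, the mTORC1 inhibitor, had livers that did not overlap between times in either treatment, in opposite directions. Vehicle mice had 7.77, 7.74 and 13.2 FPKM at ZT0 and 4.93, 3.31 and 7.49 FPKM at ZT12, so that every liver at ZT12 was below every liver at ZT0. Treated mice had 2.25, 8.13 and 5.26 FPKM at ZT0 and 20.5, 9.49 and 13.9 FPKM at ZT12, with every liver at ZT12 above every liver at ZT0. Neither change passed the adjustment in limma on 6 livers. The log2 fold change was −0.78 with vehicle (SE 0.29, p = 0.0312, limma adjusted p = 0.137) and 1.39 with Policaptil Gel Retard (SE 0.40, p = 0.0100, limma adjusted p = 0.0652), each with an exact permutation p of 0.1 (two-sided). In the limma fit over 12 samples the rise with the tested product passed (adjusted p = 0.0339). With Cyber-T the fall with vehicle (adjusted p = 0.0158) and the rise with the tested product (adjusted p = 0.000652) both passed. Of all genes, the fit over 12 samples called 8.28% higher and 6.63% lower in treated mice, and 7.49% lower in vehicle mice. For Cyber-T these shares were 8.69%, 7.45% and 6.58%. Ddit4 (ENSMUSG00000020108.4) is a short gene at chr10:59949669-59951834 on the minus strand.

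Errfi1, the EGF receptor inhibitor, had higher values at ZT12 in both treatments. Levels with vehicle were 189, 330.1 and 349 FPKM at ZT0 and 427, 399 and 417 FPKM at ZT12. Levels with the tested product were 283, 226 and 358 FPKM at ZT0 and 366, 417 and 427 FPKM at ZT12. The times did not overlap in either treatment, with the lowest of the ZT12 livers at 366 FPKM and the highest of the ZT0 livers at 358 FPKM. Within each treatment it did not pass (log2 fold change 0.57, limma adjusted p = 0.162, with vehicle, and 0.50, limma adjusted p = 0.0962, with the tested product). The change with the tested product passed with Cyber-T (adjusted p = 0.0372) and without Policaptil ZT0 replicate 3 (0.67, limma adjusted p = 0.0450). Over all 12 livers it rose by 0.53 (SE 0.15, limma adjusted p = 0.0218; exact permutation p = 0.005, two-sided), a call that ended when Policaptil ZT0 replicate 2 was left out (limma adjusted p = 0.0522). The gene (ENSMUSG00000028967.10, chr4:150853919-150868892, plus strand) overlaps an antisense gene.

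Hsd11b1, the enzyme that regenerates the hormone, had the smallest change of the 6 genes that passed over both treatments. Its vehicle livers had 494, 310.2 and 381 FPKM at ZT0 and 558, 488 and 545 FPKM at ZT12. Its treated livers had 478, 449 and 519 FPKM at ZT0 and 673, 539 and 580.3 FPKM at ZT12. The vehicle groups overlapped by ZT0 replicate 1, and the treated groups did not overlap. Without that liver the change in vehicle mice was 0.62 and passed (limma adjusted p = 0.0370). No other single removal made it pass, and without vehicle ZT0 replicate 2 it was 0.29 (limma adjusted p = 0.245). With all livers the log2 fold change was 0.45 with vehicle (limma adjusted p = 0.147), 0.31 with the tested product (limma adjusted p = 0.117) and 0.38 over all 12 livers (SE 0.11, limma adjusted p = 0.0207; exact permutation p = 0.01, two-sided). Quantile normalization lowered the last value to 0.24 and ended the call (limma adjusted p = 0.0722). The gene (ENSMUSG00000016194.14, chr1:193221634-193264075, minus strand) overlaps Lamb3 on the other strand.

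Sgk1, whose windows held the only full palindrome among those searched, passed no test. With vehicle it had 3.70, 4.04 and 7.56 FPKM at ZT0 and 1.90, 2.81 and 5.29 FPKM at ZT12. In treated mice it had 3.90, 4.30 and 2.32 FPKM at ZT0 and 4.47, 4.20 and 4.75 FPKM at ZT12. Groups overlapped in all 4 comparisons of pairs, and the log2 fold change over time was −0.51 with vehicle (limma adjusted p = 0.370) and 0.31 with the tested product (limma adjusted p = 0.297). Sgk1 (ENSMUSG00000019970.15) lies at chr10:21882184-21999903 on the plus strand. Taking both treatments together, 6 of the 8 genes rose, all but Sgk1 and Ddit4, where 15.9% of all genes passed in this direction and 14.1% in the other (limma on 12 livers). The same 6 had a p under 0.05, against 21.8% of all genes in this direction and 19.4% in the other. By exact permutation within treatments Tat had a p of 0.105, Tsc22d3 0.065 and Zbtb16 0.01 (two-sided). For Tat (0.61, limma adjusted p = 0.0363) this call was lost in turn without any library but vehicle ZT0 replicate 3, vehicle ZT12 replicate 1 and Policaptil ZT12 replicate 2, at up to 0.0846. For Tsc22d3 (0.68, limma adjusted p = 0.0386) it was kept when the library left out was replicate 2 or 3 of vehicle ZT0, replicate 2 of vehicle ZT12, or replicate 1 or 2 of Policaptil ZT12, and lost with each of the others left out, at up to 0.0859.

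**Figure D2:**
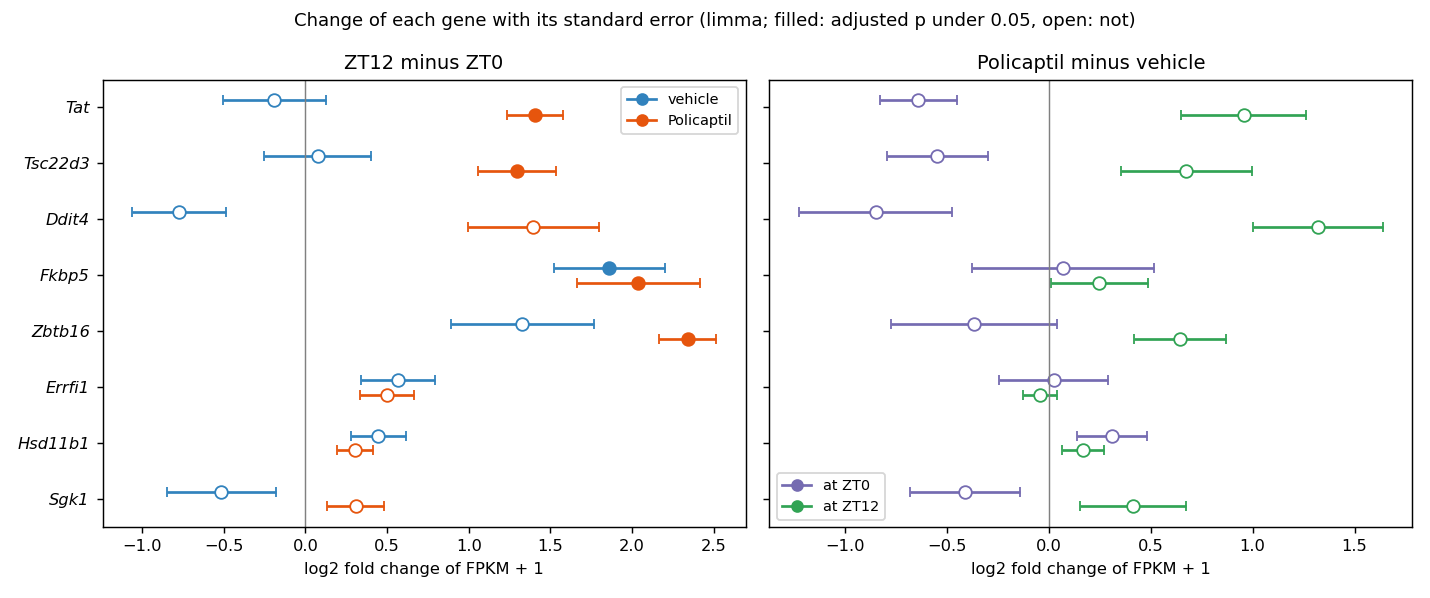
Log2 fold change of each gene on the log2(FPKM + 1) scale, ZT12 minus ZT0 in each treatment (left) and Policaptil minus vehicle at each time (right), with SE from limma and n = 3 per group. Filled symbols have an adjusted p under 0.05. Over time Fkbp5 is filled in both treatments, and Zbtb16, Tat and Tsc22d3 are filled with Policaptil and open with vehicle. Between treatments no symbol is filled.

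The effect of Policaptil Gel Retard was then compared with vehicle at each time. These comparisons share their livers with those over time, and so are not independent of them. Of the 8 genes, none passed the adjustment at either time, and neither did any of the 9806 genes (0% in each direction, limma). Cyber-T called 0.296% of all genes higher and 0.408% lower at ZT0, none of the 8 among them, and 0.153% higher and 0.0816% lower at ZT12, with Ddit4 among the higher (adjusted p = 0.00595). At ZT0, 5 of the 8 had lower means with the tested product on the log2 scale, with a median of −0.39 against −0.02 over all genes. Tat alone had a p under 0.05, against 5.81% of all genes in this direction and 3.42% in the other, and alone had groups that did not overlap, against 9.94% and 5.19% of all genes. It had 408 ± 34.3 FPKM with the tested product and 649.6 ± 169.9 FPKM with vehicle (SD, n = 3), a log2 fold change of −0.64 (SE 0.19, p = 0.0114, limma adjusted p = 0.469; exact permutation p = 0.1, two-sided). Ddit4 had −0.85 (limma adjusted p = 0.561) and Tsc22d3 −0.55 (limma adjusted p = 0.573), with overlapping livers.

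At ZT12, 7 of the 8 genes had higher log2 means with the tested product, with a median of 0.53 against −0.01 over all genes. Ddit4, Tat and Zbtb16 had a p under 0.05 and higher values, as had 3.07% of all genes, and none was lower, as were 3.67% of all genes. For Ddit4 and Tat all treated livers lay above all vehicle livers, as for 5.88% of all genes, and for no gene of the 8 below them, as for 7.26% of all genes. Ddit4 had 14.7 ± 5.56 FPKM with the tested product and 5.24 ± 2.11 FPKM with vehicle (SD, n = 3), 2.80-fold higher in mean FPKM, with a log2 fold change of 1.32 (SE 0.32, p = 0.00458, limma adjusted p = 0.729; exact permutation p = 0.1, two-sided). Tat had 1100 ± 264 FPKM against 588 ± 232 FPKM (SD, n = 3), with a log2 fold change of 0.96 (SE 0.30, p = 0.0168, limma adjusted p = 0.729; exact permutation p = 0.1, two-sided). Zbtb16 had 9.47 ± 2.42 FPKM against 5.68 ± 1.54 FPKM (SD, n = 3), with overlapping livers and a log2 fold change of 0.64 (p = 0.0249, limma adjusted p = 0.729; exact permutation p = 0.2, two-sided). Errfi1 differed least at this time, by −0.04. Over both times Hsd11b1 alone had a p under 0.05, with a treatment effect of 0.24 (SE 0.11, p = 0.0457, limma adjusted p = 0.475; exact permutation p = 0.065, two-sided), where 4.03% of all genes were higher and 6.42% lower at that p.

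**Figure D3:**
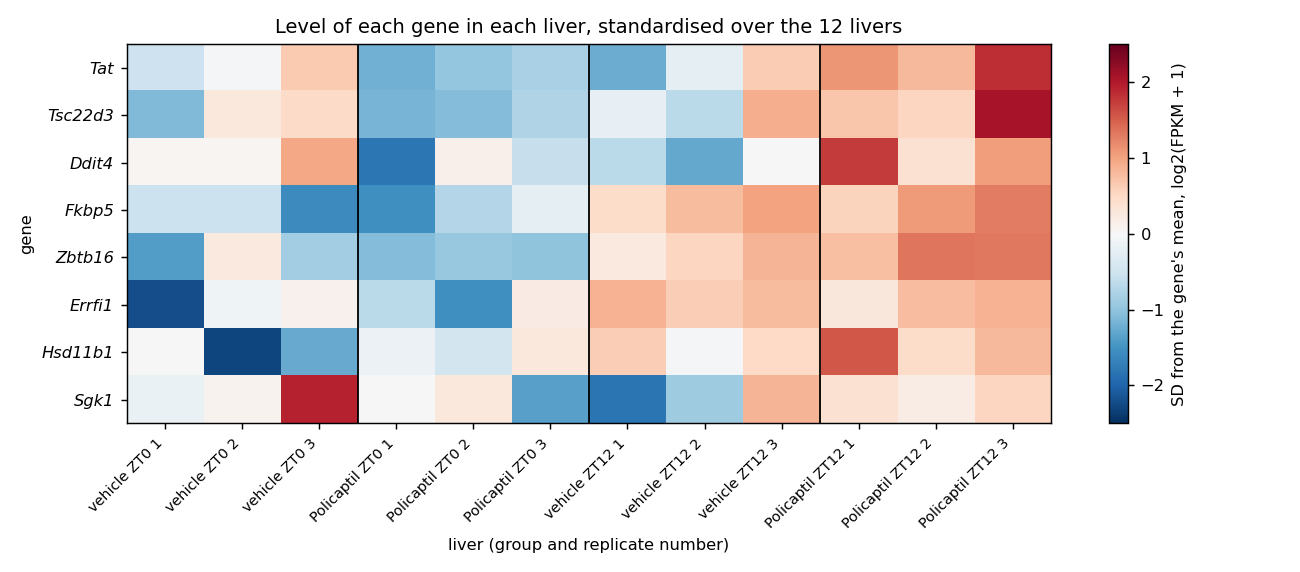
Level of each gene (rows) in each of the 12 livers (columns), in SD from the mean of that gene over the 12 livers on the log2(FPKM + 1) scale, red above and blue below. The 3 Policaptil ZT12 livers are above the mean of every gene, and Policaptil ZT0 replicate 1 is among the 3 lowest livers for 6 of the 8 genes.

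Whether the change over the day itself differed between treatments was tested as the interaction of time and treatment over all 12 livers. With the tested product 5 genes, Ddit4, Tat, Tsc22d3, Zbtb16 and Sgk1, had lower log2 means than with vehicle at ZT0 and higher ones at ZT12. No gene of the 8 and none of the 9806 passed the adjustment (0%, limma), and 3 of the 8 had a positive interaction with p under 0.05, against 3.82% of all genes, and none a negative one, against 2.8% of all genes. The median interaction was 0.92 over the 8 genes and 0.00 over all genes tested. For Tat it was 1.59 (SE 0.39, p = 0.00173, limma adjusted p = 0.519; exact permutation p = 0.005, two-sided, the smallest that 400 arrangements allow). For Ddit4 it was 2.17 (SE 0.55, p = 0.00214, limma adjusted p = 0.519; exact permutation p = 0.015, two-sided). For Tsc22d3 it was 1.22 (SE 0.45, p = 0.0193, limma adjusted p = 0.665; exact permutation p = 0.055, two-sided). The value of Sgk1 was 0.82 (limma adjusted p = 0.764; exact permutation p = 0.115, two-sided). Fkbp5, Errfi1 and Hsd11b1 had interactions between −0.14 and 0.18.

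The remainder of the pathway was read from lists written with earlier results of these data known. Of 14 genes of the receptor and of steroid supply, 12 were tested. Serpina6, which encodes the corticosteroid binding globulin of blood, rose in vehicle mice, from 117 ± 48.4 FPKM at ZT0 to 329.6 ± 52.3 FPKM at ZT12 (SD, n = 3; limma adjusted p = 0.0271). In treated mice it rose from 151 ± 32.0 FPKM to 369.8 ± 23.4 FPKM (SD, n = 3; limma adjusted p = 0.00468). Akr1d1, a reductase that inactivates steroids, rose in both treatments as well (log2 fold change 0.86, limma adjusted p = 0.0280, and 0.48, limma adjusted p = 0.0291). H6pd, which supplies the cofactor of the enzyme of Hsd11b1, fell by 0.45 on the log2 scale with the tested product (limma adjusted p = 0.0226) and had −0.36 with vehicle (limma adjusted p = 0.0716). No other gene of this list passed within a treatment, so it counted 2 higher and 0 lower with vehicle and 2 higher and 1 lower with the tested product. Of all genes, 5.62% passed as higher and 4.78% as lower in vehicle mice, and 7% and 5.36% in treated mice. Over both treatments together Fkbp4 of this list fell by 0.26 on the log2 scale (limma adjusted p = 0.0368). That comparison counted 2 genes of the list higher and 2 lower, against 15.9% and 14.1% of all genes. The receptor gene Nr3c1 stood at group means from 7.83 to 9.22 FPKM and passed no test.

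Of 26 other genes known to be induced by glucocorticoids, 25 were tested. Over the day 4 rose and 1 fell with vehicle, and 13 rose and 1 fell with the tested product, with median log2 fold changes of 0.31 and 0.79, against 0.01 over all genes in each. Among all genes, 5.62% rose and 4.78% fell in vehicle mice, while in treated mice 7% rose and 5.36% fell. The gene that fell was Pdk4 with vehicle and Irs2 with the tested product. Over both treatments together 12 of the list were called higher and 2 lower, Irs2 and Pdk4, against 15.9% and 14.1% of all genes (limma). The genes described next had the smallest adjusted p of the list in any comparison, and all had positive changes over the day. Lpin1, a phosphatidate phosphatase, had the smallest adjusted p of this list with vehicle, where it rose from 5.59 ± 0.464 FPKM at ZT0 to 40.6 ± 10.01 FPKM at ZT12 (SD, n = 3; limma adjusted p = 0.00215). In treated mice it rose from 7.64 ± 2.11 FPKM to 55.2 ± 18.8 FPKM (SD, n = 3; limma adjusted p = 0.00345). Per1, a clock repressor that the receptor also induces, rose by 1.39 with vehicle (limma adjusted p = 0.0195) and by 2.39 with the tested product (limma adjusted p = 0.00104) on the log2 scale. Gpt2 rose by 0.81 with vehicle (limma adjusted p = 0.0105) and by 1.07 with the tested product (limma adjusted p = 0.00203). Cebpd rose by 0.70 (limma adjusted p = 0.0320) and 0.97 (limma adjusted p = 0.00625). The liver transcription factor gene Cebpb had 0.76 with vehicle (limma adjusted p = 0.0902) and rose by 1.49 with the tested product (limma adjusted p = 0.000470). Sds, the serine dehydratase of amino acid breakdown, had 0.31 with vehicle (limma adjusted p = 0.447) and rose by 1.42 with the tested product (limma adjusted p = 0.00470). The gluconeogenic gene G6pc had 1.08 (limma adjusted p = 0.124) and rose by 1.84 (limma adjusted p = 0.00440). The metallothionein gene Mt2 was uneven in vehicle mice at ZT12, between 29.7 and 1023 FPKM, with a log2 fold change of 3.58 (limma adjusted p = 0.134), and rose by 4.99 with the tested product (limma adjusted p = 0.000470). Between treatments none of the 25 passed at either time. The treated means were lower for 18 of the 25 at ZT0 (median −0.27) and higher for 19 of the 25 at ZT12 (median 0.25). The interaction was positive for 20 of the 25, with a median of 0.56 against 0.00 over all genes and with p under 0.05 for 5 of them (3.82% of all genes), and it passed the adjustment for none (limma).

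**Figure D4:**
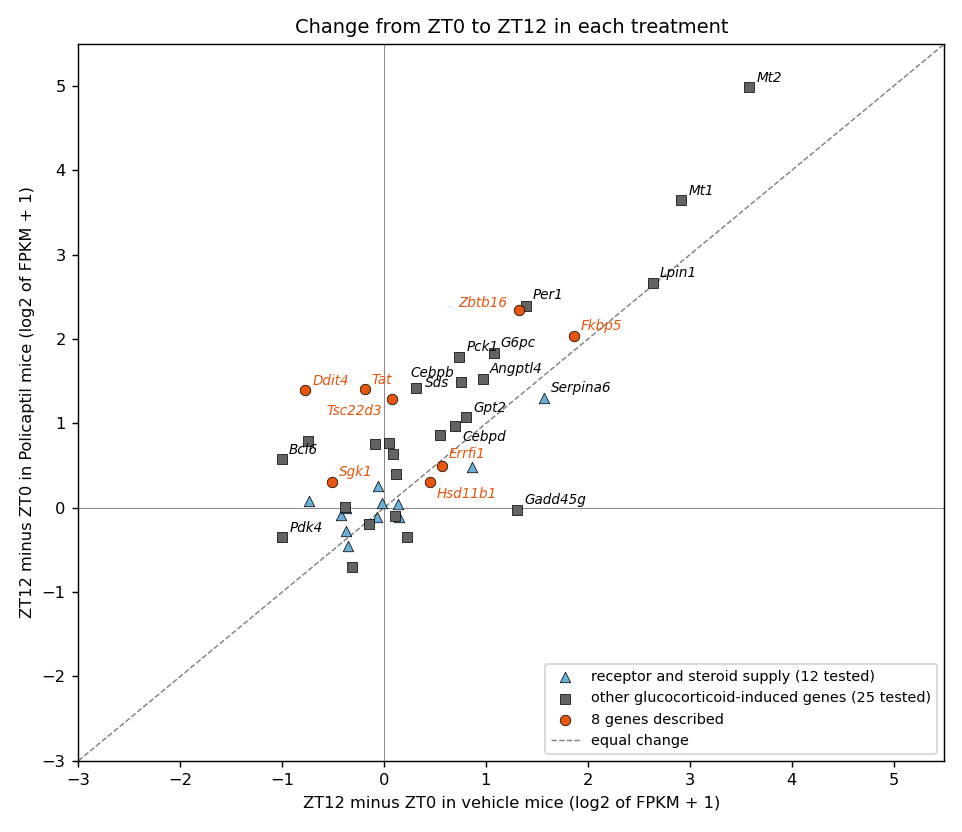
Change from ZT0 to ZT12 in vehicle mice (horizontal) and in Policaptil mice (vertical), both as log2 fold change of FPKM + 1 from limma, for the 8 genes and the genes tested of both pathway lists. The dashed line marks equal change. Ddit4, Tat and Tsc22d3 lie at −0.78, −0.19 and 0.07 on the horizontal axis and between 1.29 and 1.41 on the vertical axis, while Fkbp5, Errfi1 and Hsd11b1 lie near the line.

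The genes whose levels were most like those of each of the 8 over the 12 livers were ranked by Pearson r of log2(FPKM + 1), as a description with no test, since all 12 livers share the split by time. Klf15, a Kruppel-like factor, was the nearest to both Tsc22d3 (r = 0.933) and Tat (r = 0.893). It belongs to the list of other induced genes above, since only the 8 genes themselves were left out of the ranking. Fkbp5 was nearest to Por (r = 0.983), the electron donor of cytochromes P450, and Zbtb16 to Hnf4a (r = 0.987), a nuclear receptor of hepatocytes. Errfi1 was nearest to Prep (r = 0.934) and Hsd11b1 to Mcee (r = 0.950). The nearest genes of Ddit4 (Smarcd3, r = 0.868) and Sgk1 (Tmem25, r = 0.831) were less alike than those of the other genes.

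Several facts of the whole series stand beside these results. The time labels were checked on clock genes, of which Dbp, Per2, Per3 and Ciart rose and Arntl, Nr1d1 and Clock fell at ZT12 in both treatments (limma). Of 8 hepatocyte markers, 7 had values and Alb was listed at 0 in all 12 livers, which in liver is a failed estimate. Tsc22d3 and Zbtb16 are also known from lymphocytes, and the FPKM of 8 lymphocyte markers summed to 0.970 to 2.29 with vehicle and 2.42 to 3.04 with the tested product at ZT0, and to 0.866 to 1.54 and 1.23 to 1.33 at ZT12. None of the 8 was at 0 throughout, and the treated sums at ZT0 were the higher ones, where Tsc22d3 and Zbtb16 had the lower means, and the part of lymphocytes in these results was not tested. The 5 endothelial markers summed to 24.1 to 39.8 FPKM at ZT0 and to 12.5 to 21.5 FPKM at ZT12, a fall with time. In bulk liver RNA, fewer cells of a type and less RNA per cell cannot be told apart. Of 5 adrenal cortex markers, Cyp11a1 and Cyp11b1 were listed at 0 in all livers, and the sum of the list was 0.611 to 1.33 FPKM at ZT0 and 1.32 to 4.65 FPKM at ZT12, with every liver at ZT12 above every liver at ZT0 within each treatment. The 6 pancreas markers, 3 of them at 0 throughout, summed to 47.2 to 75.5 FPKM at ZT0 and 30.2 to 53.0 FPKM at ZT12. The 5 adipocyte markers, of which Lep and Retn were at 0 throughout, summed at ZT12 to 0.635 to 1.30 FPKM with vehicle and 0.0457 to 0.0779 FPKM with the tested product. At ZT0 the sums of 7 macrophage markers were lower with the tested product (15.8 to 27.9 FPKM) than with vehicle (28.6 to 35.4 FPKM), and those of the hepatocyte markers were higher (47900 to 58430 FPKM against 42840 to 47390 FPKM). The part of these cells in the results was not tested. The sum of FPKM ran from 634683 to 759355 over the libraries, and relative depth was from 0.712 (Policaptil ZT12 replicate 2) to 1.26 times that of vehicle ZT0 replicate 1, while the absolute depth is unknown.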

How the data were processed

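Liver RNA of 12 mice was sequenced as single-end reads, 3 per group, and each sample was assigned to its group by its label. The authors deposited 1 table of FPKM per gene and sample. Their methods describe stranded mRNA libraries aligned to mm10 with ELAND, uniquely matched reads and RPKM, but per the labels the kit was TruSeq RNA v2, and the submitters' processing notes name TopHat and Cuffnorm. Which of these made the table is not settled, so neither is whether strand was used or how reads with several matches were treated. No counts are in the table, and no counting error can be given; the spread of 3 mice per group sets the precision.

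Of 24138 lines, 289 repeated a symbol, of which the line highest on average stayed. Values were analysed as log2(FPKM + 1) for the 9806 of 23849 symbols with a mean of at least 1 FPKM, and fold changes on this scale understate those of low genes. Pairs of groups were compared in limma 3.58.1 (R 4.3.3; lmFit, eBayes with trend, two-sided) on the 6 livers concerned, and contrasts of the 4 groups on all 12, with Benjamini-Hochberg adjustment over all genes tested and calls at 0.05. The labels of single genes were also permuted exactly, in 20 arrangements for pairs and 400 within strata. For the interaction the treatment labels were permuted within each time, which is exact only if the treatment has no effect at either time. The calculation was tested on simulated data.

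The 8 genes and the lists were chosen with earlier results of these data known. Named genes are the 8 and members of the lists called in any comparison (at most 8 per list by smallest adjusted p, plus Nr3c1, Serpina6 and Per1). Pdk4 and Irs2 are named besides, as the genes of the other induced list that fell within a treatment. For each of the 8, the gene or genes with the highest r were ranked, of which the first is given. Nr3c2, Hsd11b2, Ppargc1a and Npas2 did not reach the minimum. Coordinates are from GENCODE vM21, whose build is mm10, and window sequences from RefSeq. Alternatives tried were 0.1 as pseudocount, no minimum or 5 FPKM as minimum, median-ratio scaling, quantile normalization, limma without trend, 1 fit of all 12 samples, a block for the replicate number, the regularised test named in the paper (rewritten here as Cyber-T), and the removal of each library in turn.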

Additional observations from a re-analysis of the deposited data

Results flagged for a closer look

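Of the 8 genes, 3 had a change over the day that differed between the 2 treatments by the interaction at an unadjusted p under 0.05, all positive, as had 3.82% of all genes in that direction and 2.8% in the other, and none of the 3 passed the adjustment over 9806 genes (limma). Tat had an interaction of 1.59 on the log2 scale (p = 0.00173, limma adjusted p = 0.519; exact permutation p = 0.005, two-sided), with a time change of −0.19 in vehicle mice and 1.41 with Policaptil Gel Retard. Leaving out any one library gave values from 1.29 to 1.88. Ddit4 had 2.17 (p = 0.00214, limma adjusted p = 0.519; exact permutation p = 0.015, two-sided), with −0.78 and 1.39, every ZT12 liver below every ZT0 liver with vehicle and above with the tested product, and 1.76 to 2.51 without any one library. Tsc22d3 had 1.22 (p = 0.0193, limma adjusted p = 0.665; exact permutation p = 0.055, two-sided), with 0.07 and 1.29, and 0.92 to 1.52 without any one library.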

How the results depend on the processing

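The number of the 8 genes that rose at ZT12 in vehicle mice (1) was 0 without a minimum FPKM, 2 in a fit over 12 samples and 2 with Cyber-T, and ranged from 0 to 2 with single libraries left out: 2 without vehicle ZT0 replicate 1 or 2, and 0 without vehicle ZT12 replicate 2 or 3. Cyber-T also gave 1 gene that fell in vehicle mice, Ddit4, and 1 that was higher with the tested product at ZT12, again Ddit4, where it called 6.58% and 0.153% of all genes in these directions. With the tested product the number that rose (4) was 2 without a minimum, 5 in the fit over 12 samples and 6 with Cyber-T, and from 2 (without Policaptil ZT0 replicate 2) to 5 (without Policaptil ZT0 replicate 3) with single libraries left out. Over both treatments the number (6) was 3 with quantile normalization, and 3 without Policaptil ZT0 replicate 2. It was also lower without a minimum, where Tat (limma adjusted p = 0.0717) and Tsc22d3 (limma adjusted p = 0.0748) were lost. Most other removals of single libraries lowered it too, through Tat, Tsc22d3 or both, as given above. A minimum of 5 FPKM leaves out Zbtb16 and Sgk1. The replicate numbers do not pair the livers: of 18 pairs with the same number, 4 correlated above 0.1 in their deviations from the group means (−0.28 to 0.34). With the number as a block, 0 of the 8 genes rose in vehicle mice, and 138 genes rose and 141 fell in the whole table; for the 8 genes the block changed no other call.

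Small changes turned sign when single libraries were left out. Over time with vehicle, the log2 fold change ranged from −0.23 to 0.29 for Tsc22d3 and from −0.48 to 0.11 for Tat. For the treatment at ZT0 it ranged from −0.33 to 0.47 for Fkbp5, from −0.77 to 0.14 for Zbtb16 and from −0.26 to 0.19 for Errfi1, and at ZT12 from −0.086 to 0.026 for Errfi1. Over both treatments Sgk1 ranged from −0.26 to 0.033. The interaction ranged from −0.22 to 0.58 for Fkbp5, from −0.23 to 0.21 for Errfi1 and from −0.32 to 0.020 for Hsd11b1. None of these changes had passed the test. The causes were not tested.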
